A study of Homo sapiens with 6 samples.

Results

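The genes described here were 236 antisense RNAs of H23 cells, a human lung adenocarcinoma line, together with the sense genes after which they are named. They were the rows of the deposited gene tables whose symbol ends in -AS1, -AS2 or -AS3, does not start with HOX, and has at least 20 expected counts in each of 6 libraries. They made up 236 of 27968 genes, with 225 names in -AS1, 10 in -AS2 and 1, MAGI2-AS3, in -AS3. In all, 1124 rows had such an ending, of which 8 started with HOX, 304 others were at 0 in every library and 576 others fell below the minimum. The lowest counts of PLS3-AS1, PPP1R26-AS1, RAMP2-AS1, TRAF3IP2-AS1 and ZNF793-AS1 were exactly 20. Just outside were SNRK-AS1 with a lowest count of 19.79, and CDKN2B-AS1, DLX6-AS1 and FGF14-AS2 with 19 each. The genes were chosen by their expected counts in both groups, so RNAs that are close to absent in either group are left out. For 234 of the 236 the named partner was in the tables, which made 230 distinct partners. The partners of JHDM1D-AS1 and RPARP-AS1 were not among the symbols.

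Antisense RNAs are transcribed from the strand opposite to a gene, most of them by RNA polymerase II, and few are known to encode protein. Some start beside the promoter of their partner and run away from it, so that both transcripts arise at a shared bidirectional promoter. Others overlap the partner's exons or lie in its introns, where they can act on chromatin, splicing or the stability of the partner, or have no known role. Promoter-linked RNAs of this kind are often spliced poorly and turned over in the nucleus by the RNA exosome.

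Cells in 3 libraries had been transfected with an siRNA specific for HOTAIR-N, a form of the HOX-cluster long non-coding RNA HOTAIR, and cells in the other 3 with a control siRNA. Both groups grew in RPMI1640 medium, received their siRNA with RNAiMAX and were harvested after 48 hours, and each library stands for an independent transfection of the same line. The comparison asks how these transcripts differ when HOTAIR-N is targeted. The libraries held 32715361, 33667345 and 35329948 expected counts with HOTAIR-N siRNA, and 34715341, 35206646 and 36578681 with control siRNA. The targeted gene HOTAIR had 88, 74 and 82 expected counts with HOTAIR-N siRNA, against 169, 148 and 202 with control siRNA. This was 2.39 ± 0.26 CPM, counts scaled to the library total after TMM adjustment, with HOTAIR-N siRNA and 4.90 ± 0.67 CPM with control siRNA (SD, n = 3 each). Its log2 fold change was -1.04 (SE 0.14; edgeR quasi-likelihood test, adjusted p = 1.32e-05).

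All 6 epithelial markers (EPCAM, KRT8, KRT18, KRT19, CDH1, CLDN4) reached 1 TPM, the length-adjusted scale of the tables, in at least 1 library, with summed levels of 2920 to 3290 TPM with HOTAIR-N siRNA and 3715 to 4422 TPM with control siRNA. The lower sum lay with KRT18, at 1449 to 1597 TPM with HOTAIR-N siRNA and 2355 to 2809 TPM with control siRNA. CDH1 was at 24.1 to 25.3 TPM with HOTAIR-N siRNA and 11.6 to 12.3 TPM with control siRNA, and CLDN4 at 0.82 to 1 TPM with HOTAIR-N siRNA and 0.34 to 0.64 TPM with control siRNA. KRT8, KRT19 and EPCAM overlapped between the groups. Of 6 lung markers NKX2-1 alone reached 1 TPM, and SFTPA1 was at 0. Their sum was 2.67 to 3.63 TPM with HOTAIR-N siRNA and 1.53 to 1.97 TPM with control siRNA. Of 6 fibroblast markers 2 did, COL1A1 and LUM, and the sum was 15.6 to 15.98 TPM with HOTAIR-N siRNA and 5.89 to 6.52 TPM with control siRNA. Of 5 immune markers 1 did, CD14, with CD3E at 0, and sums of 1.77 to 2.68 TPM with HOTAIR-N siRNA and 2.58 to 3.08 TPM with control siRNA. None of 4 endothelial markers did, at sums of 0.35 to 0.43 TPM with HOTAIR-N siRNA and 0.21 to 0.33 TPM with control siRNA. Whether these levels bear on the antisense RNAs was not tested.

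With HOTAIR-N siRNA, 73 of the 236 antisense RNAs rose and 37 fell, while 126 did not pass the test (edgeR quasi-likelihood test, adjusted p under 0.05 over all genes tested). The 110 that passed are 46.6% of them, against 57.5% of all 15072 genes tested. The risers are 30.9% of the antisense RNAs against 28.7% of all genes, and the fallers 15.7% against 28.8%. The median log2 fold change, HOTAIR-N siRNA minus control siRNA, was 0.11 for the antisense RNAs and 0.01 for all genes. The values of the 2 groups did not overlap for 130 antisense RNAs (55.1%), against 62.9% of all genes. A log2 fold change of at least 1 in either direction together with the test was met by 17 of them, 7 higher and 10 lower, and by 8.67% of all genes. In bulk RNA, less RNA per cell and fewer cells that carry it cannot be told apart.

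These RNAs were scarce, and their values correspondingly less precise. The median of their mean counts was 88.6, against 702 for all tested genes, and the median SE of the log2 fold change was 0.15 against 0.08. On the length-adjusted scale their median level was 3.30 TPM, with a range of 0.433 to 349 TPM, and 31 exceeded 10 TPM. The partners had a median of 18 TPM, and in 62 of 234 pairs the antisense RNA had the higher TPM.

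**Figure D1:**
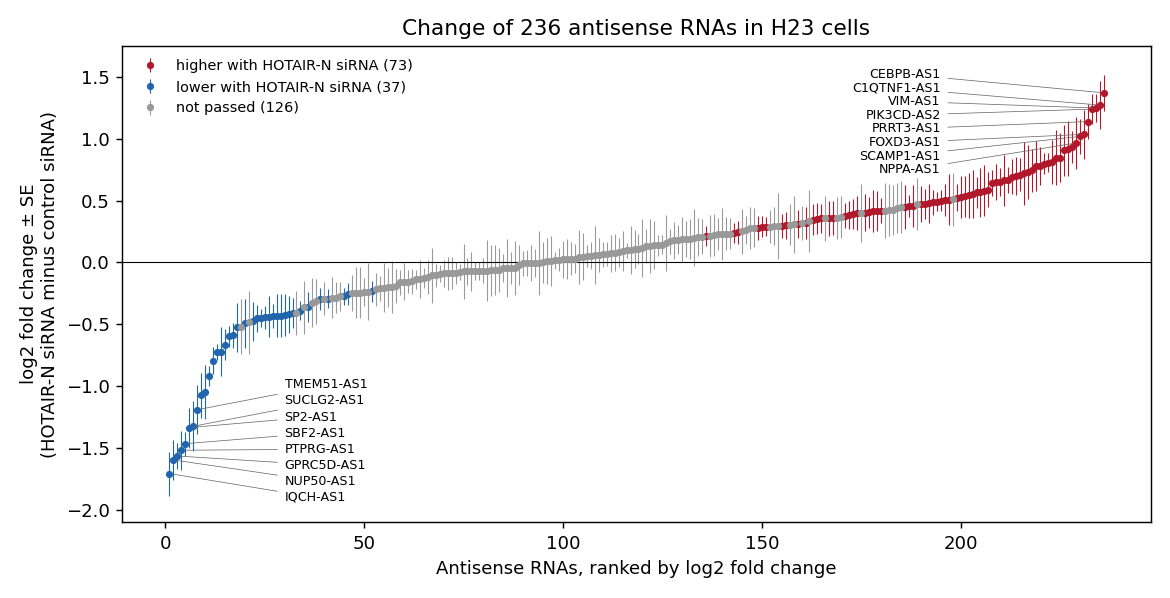
Log2 fold change (HOTAIR-N siRNA minus control siRNA) of each of the 236 antisense RNAs on the vertical axis, in rank order on the horizontal axis; points are estimates and bars are standard errors from the fit over all genes. The 37 RNAs that fell (blue) reach -1.71 in IQCH-AS1 and the 73 that rose (red) reach 1.37 in CEBPB-AS1.

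All 236 names matched an entry of the RefSeq table for GRCh38.p14, where 40 now have another symbol and 32 of those end in -DT, for divergent transcript. The entry was a long non-coding or antisense RNA for 232. The other 4 are FAM83H-AS1 (now IQANK1), NCBP2-AS2 (NCBP2AS2) and TNRC6C-AS1 (TMC6), listed as protein-coding, and TP73-AS1 (GFOD3P), a transcribed pseudogene. Gene models in GENCODE release 29 placed 228 of the 236 relative to their partner. In 85 pairs the 5′ ends overlapped (overlapping heads), and in 48 the 3′ ends did (overlapping tails). In 45 the genes were divergent without overlap (head-to-head), in 35 the antisense gene lay inside the partner, in 14 it spanned the partner and in 1, LYRM4-AS1, the genes faced each other without overlap.

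A read that fits both strands' transcripts can be divided between them by the counting, which leaves expected counts that are not whole. Counts were whole in every library for 125 antisense RNAs, within a tolerance of 0.005, and not whole for 111. Among antisense RNAs with no exon overlap with their partner, 4 of 72 (5.6%) had such divided counts. With an overlap of up to 20% of the antisense exons it was 58 of 108 (53.7%), and above 20% it was 42 of 48 (87.5%), with the partner's counts divided too in all 42. Of the 125 with whole counts 36 rose and 21 fell, and of the 111 with divided counts 37 rose and 16 fell. How far sense reads entered the antisense values, or the reverse, was not tested. Whether the counts were whole is therefore given beside many of the RNAs below, though not beside all.

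Among the 45 head-to-head antisense RNAs, 14 rose (31.1%), 9 fell (20%) and 22 did not pass. Of their 44 tested partners 5 rose (11.4%) and 19 fell (43.2%), against 28.7% and 28.8% of all genes. The starts of these genes lay a median of 111 nt apart, in GENCODE and 36 of the 45 pairs were closer than 250 nt. Both genes passed in 14 pairs, in the same direction in 8 and in opposite directions in 6. Counts were whole for 43 of the 45, of which 13 rose and 9 fell.

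The promoters of 4 such pairs are shown because a short stretch of DNA lies between starts whose transcripts did or did not move together. Each runs from 250 bases before to 50 bases after the start of the sense gene, on its strand, in RefSeq GRCh38.p14. Capitals mark the bases between the start of the antisense RNA and that of the sense gene, 144 for NUP50 (chr22:45163675-45163974, plus strand), 85 for SUCLG2 (chr3:67654563-67654862, minus strand), 76 for SCAMP1 (chr5:78360367-78360666, plus strand) and 137 for FLVCR1 (chr1:212858025-212858324, plus strand). The pair of FLVCR1 was chosen after its values were seen, as a case of opposite changes.
NUP50: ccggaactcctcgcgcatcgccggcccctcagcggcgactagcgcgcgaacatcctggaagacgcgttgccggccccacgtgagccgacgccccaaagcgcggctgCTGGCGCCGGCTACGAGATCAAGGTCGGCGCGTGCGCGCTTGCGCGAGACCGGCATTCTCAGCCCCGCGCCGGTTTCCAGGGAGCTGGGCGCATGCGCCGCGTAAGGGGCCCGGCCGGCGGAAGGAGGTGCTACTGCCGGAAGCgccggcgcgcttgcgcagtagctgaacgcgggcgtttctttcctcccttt
SUCLG2: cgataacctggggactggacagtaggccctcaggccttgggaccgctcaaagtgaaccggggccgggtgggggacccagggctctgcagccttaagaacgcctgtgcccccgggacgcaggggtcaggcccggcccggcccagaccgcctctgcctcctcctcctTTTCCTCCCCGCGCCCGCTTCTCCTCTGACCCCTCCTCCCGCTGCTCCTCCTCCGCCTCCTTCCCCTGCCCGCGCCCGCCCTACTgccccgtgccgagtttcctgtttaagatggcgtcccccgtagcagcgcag
SCAMP1: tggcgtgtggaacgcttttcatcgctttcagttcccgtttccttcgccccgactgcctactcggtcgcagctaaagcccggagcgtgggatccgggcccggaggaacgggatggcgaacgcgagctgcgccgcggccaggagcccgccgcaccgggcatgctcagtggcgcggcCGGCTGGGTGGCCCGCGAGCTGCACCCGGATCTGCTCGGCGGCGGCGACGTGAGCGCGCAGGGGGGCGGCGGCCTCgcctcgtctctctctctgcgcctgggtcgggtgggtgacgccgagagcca
FLVCR1: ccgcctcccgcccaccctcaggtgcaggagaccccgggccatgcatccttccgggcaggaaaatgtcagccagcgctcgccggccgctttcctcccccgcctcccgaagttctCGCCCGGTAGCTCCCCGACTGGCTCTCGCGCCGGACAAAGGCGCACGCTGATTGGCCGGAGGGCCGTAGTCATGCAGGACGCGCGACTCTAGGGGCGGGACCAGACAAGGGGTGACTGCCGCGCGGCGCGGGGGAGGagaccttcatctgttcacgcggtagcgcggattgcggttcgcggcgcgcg

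These stretches are rich in G and C, with 71.3%, 70%, 72.3% and 70.7% in the order shown and 48, 23, 43 and 39 CpG dinucleotides. RefSeq promoters were found for 38 partners of head-to-head antisense RNAs, with a median of 70.5% G and C and 32.5 CpG dinucleotides, against 58.3% and 14 over 27305 promoters of the same length. The letters GGGCGG, on either strand, occurred in 84.2% of the 38 and in 44.6% of all. CCGGAA occurred in 31.6% and 17.6%, CCAAT in 28.9% and 35.7%, and TATAAA in 13.2% and 12%. Among the partners of all antisense RNAs, whatever their arrangement, GGGCGG occurred in 68.2%, CCGGAA in 25.1%, CCAAT in 34.4% and TATAAA in 8.7%. Their medians were 66.3% G and C and 26 CpG dinucleotides. The excess of G and C, CpG, GGGCGG and CCGGAA over all promoters was thus also seen, to a smaller extent, over the partners of all arrangements. That set includes the head-to-head partners, and the others were not taken alone. The NUP50 stretch holds CCGGAA at 2 places and none of the other 3 words, while those of SUCLG2 and SCAMP1 hold GGGCGG at 1 place each. The FLVCR1 stretch holds GGGCGG at 2 places, and CCAAT and CCGGAA at 1 each. These words were searched without regard to overlap with one another, and a match is no evidence of binding.

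NUP50-AS1 and SUCLG2-AS1 fell together with their partners. NUP50-AS1 (RefSeq NUP50-DT, chromosome 22, whole counts) had 0.945, 1.00 and 1.01 CPM with HOTAIR-N siRNA, against 2.83, 2.72 and 3.40 CPM with control siRNA. All 3 HOTAIR-N siRNA libraries were below all controls, and the log2 fold change was -1.60 (SE 0.16; edgeR, adjusted p = 8.82e-07). NUP50, which encodes a nucleoporin of the nuclear pore's basket, had 75.7, 74.1 and 76.6 CPM with HOTAIR-N siRNA, against 107, 115 and 111 CPM with control siRNA. Its log2 fold change was -0.56 (SE 0.06; edgeR, adjusted p = 6.80e-07), so that the antisense RNA fell further than its partner. The log2 ratio of NUP50-AS1 to NUP50 was -6.18 ± 0.05 with HOTAIR-N siRNA and -5.20 ± 0.18 with control siRNA (SD, n = 3 each). The groups did not overlap in it (exact two-sided permutation test, p = 0.1; with 3 libraries a group no smaller p is possible).

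SUCLG2-AS1 (SUCLG2-DT, chromosome 3, whole counts) had 0.701, 0.647 and 0.589 CPM with HOTAIR-N siRNA, against 1.91, 1.52 and 1.44 CPM with control siRNA. The groups did not overlap, at a log2 fold change of -1.32 (SE 0.20; edgeR, adjusted p = 5.43e-05). SUCLG2, the GTP-specific beta subunit of mitochondrial succinyl-CoA synthetase, averaged 23.6 ± 0.40 CPM with HOTAIR-N siRNA and 37.3 ± 2.79 CPM with control siRNA (SD, n = 3 each), with a log2 fold change of -0.66 (edgeR, adjusted p = 1.60e-06).

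In other divergent pairs the antisense RNA rose alone or against its partner. SCAMP1-AS1 (chromosome 5, whole counts) had 4.27, 4.50 and 3.56 CPM with HOTAIR-N siRNA, against 2.17, 1.78 and 2.13 CPM with control siRNA. It was higher in every HOTAIR-N siRNA library, with a log2 fold change of 1.02 (SE 0.14; edgeR, adjusted p = 1.89e-05). SCAMP1, a carrier protein of secretory membranes, had 29.1, 26.2 and 30.1 CPM with HOTAIR-N siRNA, against 20.8, 31.0 and 28.5 CPM with control siRNA. Its groups overlapped, it did not pass (log2 fold change 0.09, edgeR adjusted p = 0.538), and the sign turned without control replicate 1 (-0.06). FLVCR1-AS1 (FLVCR1-DT, chromosome 1, whole counts) had 3.81, 4.88 and 4.18 CPM with HOTAIR-N siRNA, against 3.15, 2.81 and 2.27 CPM with control siRNA, a log2 fold change of 0.65 (SE 0.14; edgeR, adjusted p = 0.00133). FLVCR1, a membrane transporter, had 23.3, 23 and 24 CPM with HOTAIR-N siRNA, against 26.2, 29.4 and 29.5 CPM with control siRNA, a log2 fold change of -0.28 (edgeR, adjusted p = 0.0038). Neither gene's groups overlapped.

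The same split was seen in other divergent pairs, named after their values were seen. EIF3J-AS1 (0.40), UBAC2-AS1 (0.54), PAXIP1-AS1 (0.30) and OTUD6B-AS1 (0.23) rose while EIF3J (-0.33), UBAC2 (-0.26), PAXIP1 (-0.21) and OTUD6B (-0.23) fell, in log2 fold change. URB1-AS1 fell by 0.36 on the log2 scale while URB1 rose by 0.25. DNAJC3-AS1 (0.66), TRIM52-AS1 (0.50) and UBA6-AS1 (0.29) rose with their partners, and TRAM2-AS1 (-0.79), USP46-AS1 (-0.49) and UBL7-AS1 (-0.42) fell with theirs. For PRKCQ, a protein kinase C, the partner alone fell by 1.27 on the log2 scale, while PRKCQ-AS1 had a log2 fold change of -0.07 and did not pass (edgeR, adjusted p = 0.591).

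Over all 219 pairs in which both genes were tested, both passed in 62. They moved the same way in 38, 22 of them higher and 16 lower. In 24 they moved in opposite directions, 16 with the antisense RNA higher and the partner lower and 8 the other way round. The antisense RNA passed and its tested partner did not in 27 pairs where it was higher and 11 where it was lower. Of 232 partner names, 60 rose, 71 fell, 84 did not pass and 17 were not tested or not in the tables, which is a share of 60.9% called among the 215 tested, against 57.5% of all genes. Across the 219 pairs, which share libraries and in part reads, Spearman's correlation of the log2 fold changes was 0.22, with 0.18 over the 115 pairs whose antisense RNA had whole counts. The log2 ratio of antisense RNA to partner did not overlap between the groups in 122 of the 219 pairs (55.7%). Among all genes tested, the CPM of single genes did not overlap for 62.9%, so the share for ratios was not above that for single genes.

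**Figure D2:**
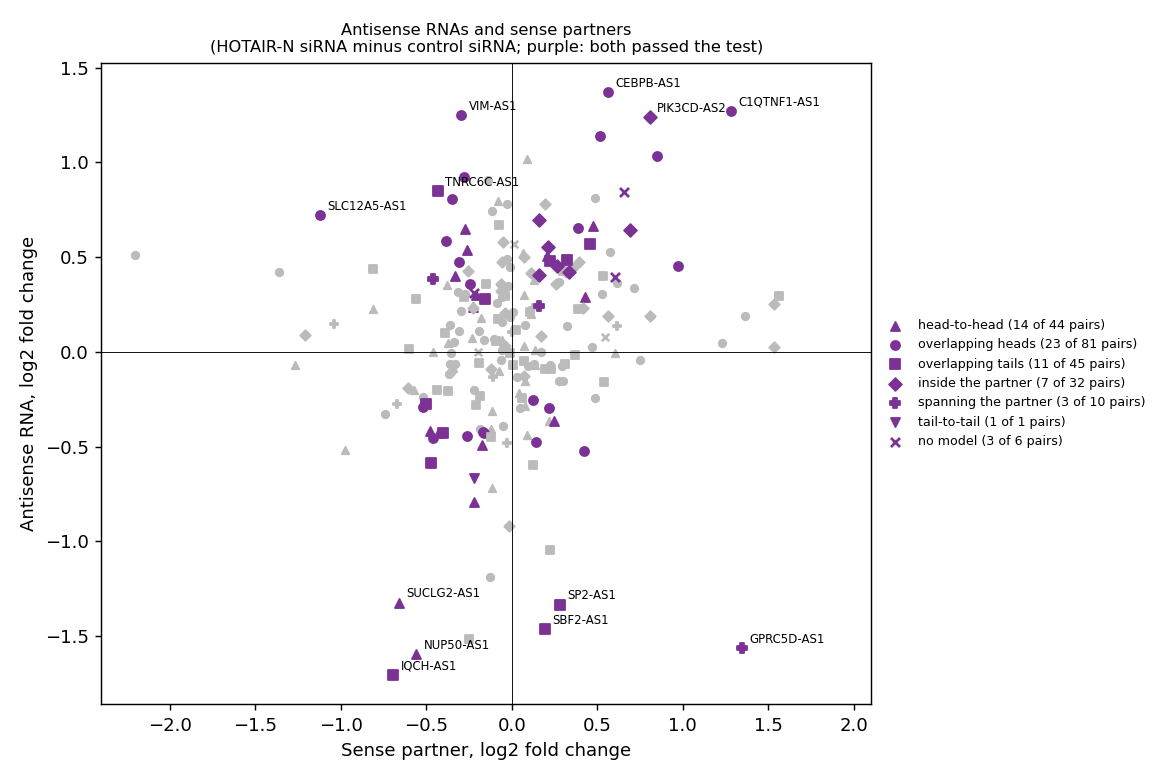
Log2 fold change of each sense partner (horizontal) and of its antisense RNA (vertical), HOTAIR-N siRNA minus control siRNA, for the 219 pairs tested; symbols give the arrangement and purple marks the 62 pairs in which both genes passed. Of those, 38 lie where both axes have the same sign and 24 where the signs differ, with GPRC5D-AS1 farthest into the lower right.

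Of 35 antisense RNAs inside their partner 17 rose (48.6%), 1 fell (2.9%), EMC3-AS1, and 17 did not pass. Of their 32 tested partners 14 rose (43.8%) and 3 fell (9.4%), and of all genes tested 28.7% rose and 28.8% fell. Both genes passed in 7 pairs and were higher in all 7, DNAH17, PIK3CD, STEAP3, TBC1D8, TFAP2A with both its AS1 and AS2, and ZNF529. Counts were divided in 5 of these 7, all but PIK3CD-AS2 and TBC1D8-AS1. Over the 15 RNAs of this kind with whole counts, 6 rose, none fell and 9 did not pass.

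PIK3CD-AS2 (chromosome 1, whole counts, no exon overlap) had 9.54, 9.91 and 9.35 CPM with HOTAIR-N siRNA, against 5.09, 3.47 and 3.65 CPM with control siRNA. The groups did not overlap, at a log2 fold change of 1.24 (SE 0.12; edgeR, adjusted p = 7.59e-07). PIK3CD, a catalytic subunit of phosphoinositide 3-kinase, had 28, 27.2 and 28.3 CPM with HOTAIR-N siRNA, against 16.5, 15.7 and 15.6 CPM with control siRNA, a log2 fold change of 0.81 (SE 0.07; edgeR, adjusted p = 1.41e-07). TFAP2A-AS1 (divided counts) rose by 0.70 and TFAP2A, the transcription factor AP-2 alpha, by 0.16 on the log2 scale. DNAH17-AS1 (divided counts) and DNAH17, an axonemal dynein, rose by 0.64 and 0.69. ATP6V1B1-AS1 (whole counts) rose by 0.93, and its partner, a subunit of the vacuolar proton pump, was too low to be tested.

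EMC3-AS1 (chromosome 3, divided counts) went against the others, with 9.96, 10.5 and 11.1 CPM with HOTAIR-N siRNA and 20.2, 18.4 and 21.0 CPM with control siRNA, a log2 fold change of -0.92 (SE 0.08; edgeR, adjusted p = 1.93e-07). EMC3, a subunit of the membrane protein insertase of the endoplasmic reticulum, had a log2 fold change of -0.02 and did not pass.

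**Figure D3:**
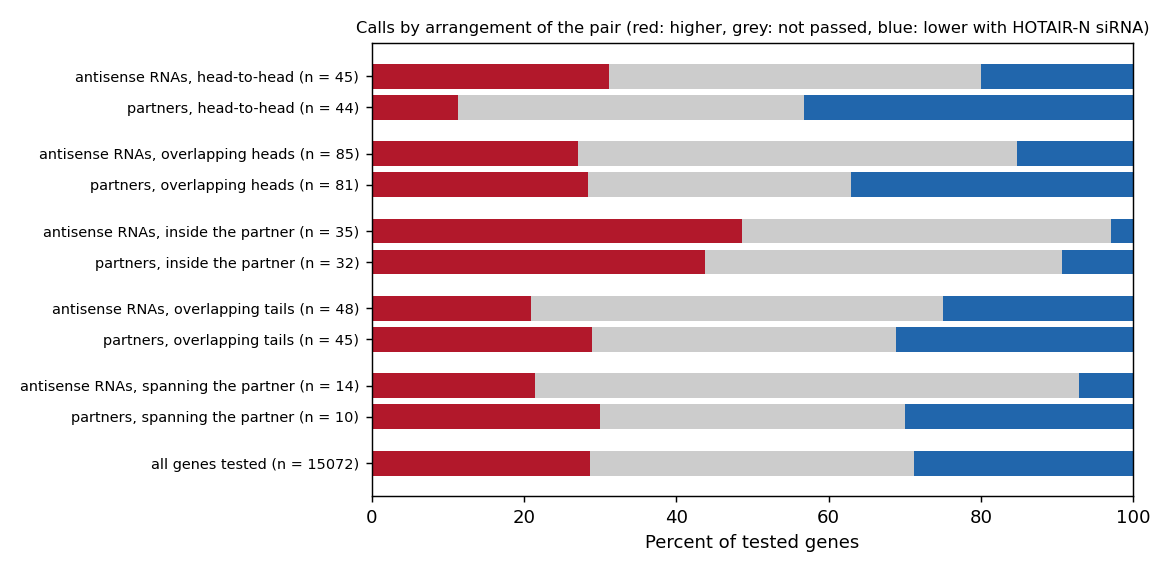
Percent of tested genes that were higher (red), not past the threshold (grey) or lower (blue) with HOTAIR-N siRNA, for antisense RNAs and partners by arrangement and for all 15072 genes tested. Antisense RNAs inside the partner have 48.6% higher and 2.9% lower, and partners of head-to-head antisense RNAs 11.4% higher and 43.2% lower.

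Of the 85 antisense RNAs whose 5′ end overlaps that of the partner, 23 rose (27.1%) and 13 fell (15.3%), and of 81 tested partners 23 rose (28.4%) and 30 fell (37.0%), against 28.7% and 28.8% of all genes. Both passed in 23 pairs, in the same direction in 12. The largest rises of all antisense RNAs were in this class. CEBPB-AS1 (chromosome 20, divided counts) had 3.69, 2.97 and 3.42 CPM with HOTAIR-N siRNA, against 1.33, 1.23 and 1.33 CPM with control siRNA, a log2 fold change of 1.37 (SE 0.15; edgeR, adjusted p = 1.64e-06). CEBPB, a bZIP transcription factor of the inflammatory and stress responses, had 70.3, 77.8 and 71.8 CPM with HOTAIR-N siRNA, against 55.8, 46.6 and 46.6 CPM with control siRNA. It rose less than its antisense RNA, by 0.56 in log2 units (edgeR, adjusted p = 1.5e-05), and the groups overlapped for neither gene.

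C1QTNF1-AS1 (chromosome 17, whole counts) rose in step with its partner. It had 1.61, 1.47 and 1.46 CPM with HOTAIR-N siRNA, against 0.607, 0.659 and 0.608 CPM with control siRNA, a log2 fold change of 1.27 (SE 0.19; edgeR, adjusted p = 4.60e-05). C1QTNF1, a secreted protein with a C1q domain, had 64.8, 71.4 and 69.3 CPM with HOTAIR-N siRNA, against 31.9, 26.9 and 25.6 CPM with control siRNA, a log2 fold change of 1.28 (SE 0.08; edgeR, adjusted p = 5.66e-09). Between the genes the log2 ratio was -5.45 ± 0.15 with HOTAIR-N siRNA and -5.36 ± 0.20 with control siRNA (SD, n = 3 each), and the groups overlapped (difference -0.08, exact two-sided permutation p = 0.7).

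PRRT3-AS1 (chromosome 3) and FOXD3-AS1 (chromosome 1), both with divided counts, rose with their partners too. PRRT3-AS1 had 2.89, 3.09 and 3.03 CPM with HOTAIR-N siRNA, against 1.42, 1.40 and 1.27 CPM with control siRNA, a log2 fold change of 1.14 (edgeR, adjusted p = 7.03e-06), while PRRT3 rose by 0.52 (adjusted p = 0.0056). FOXD3-AS1 had 1.95, 1.65 and 1.49 CPM with HOTAIR-N siRNA, against 0.925, 0.659 and 0.884 CPM with control siRNA, a log2 fold change of 1.04 (edgeR, adjusted p = 0.000394). FOXD3, a forkhead transcription factor of the neural crest, averaged 0.821 ± 0.13 CPM with HOTAIR-N siRNA and 0.454 ± 0.10 CPM with control siRNA (SD, n = 3 each). Its rise of 0.85 passed with edgeR (adjusted p = 0.0115) but not with DESeq2 (adjusted p = 0.0583), nor without HOTAIR-N siRNA replicate 2 (edgeR, adjusted p = 0.0616) or control replicate 2 (0.0578). NPPA-AS1 (chromosome 1, divided counts, no gene model) had 1.68, 1.85 and 1.74 CPM with HOTAIR-N siRNA, against 0.867, 0.631 and 1.19 CPM with control siRNA, a log2 fold change of 0.97 (edgeR, adjusted p = 0.00111). NPPA, the atrial natriuretic peptide gene, was too low to be tested.

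VIM-AS1 rose while its partner fell. VIM-AS1 (chromosome 10, divided counts, 32.2% of its exons overlapping) had 8.99, 8.12 and 8.79 CPM with HOTAIR-N siRNA, against 3.06, 3.81 and 4.01 CPM with control siRNA. The groups were well apart, at a log2 fold change of 1.25 (SE 0.11; edgeR, adjusted p = 2.24e-07). VIM, which encodes the intermediate filament vimentin, had 1921, 1984 and 1960 CPM with HOTAIR-N siRNA, against 2429, 2445 and 2325 CPM with control siRNA, a log2 fold change of -0.30 (SE 0.05; edgeR, adjusted p = 8.34e-05). The log2 ratio of VIM-AS1 to VIM was -7.82 ± 0.10 with HOTAIR-N siRNA and -9.36 ± 0.23 with control siRNA (SD, n = 3 each), without overlap (exact two-sided permutation p = 0.1). At these ratios a small share of VIM reads placed on VIM-AS1 would be large for it, and such a share cannot be seen in the tables.

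SLC12A5-AS1 (chromosome 20, divided counts) had 1.13, 2.32 and 1.38 CPM with HOTAIR-N siRNA, against 1.19, 0.889 and 0.857 CPM with control siRNA. The groups overlapped, and the log2 fold change of 0.72 (SE 0.26; edgeR, adjusted p = 0.0255) did not pass without HOTAIR-N siRNA replicate 2 (0.36, adjusted p = 0.221) or without control replicate 2 (adjusted p = 0.0822) or 3 (0.0763). SLC12A5, a potassium-chloride cotransporter known from neurons, had 0.244, 0.618 and 0.281 CPM with HOTAIR-N siRNA, against 0.925, 0.946 and 0.635 CPM with control siRNA, a log2 fold change of -1.12 (edgeR, adjusted p = 0.00832). The log2 ratio of the pair, which cancels what both share within a library, was 1.98, 1.82 and 2.08 with HOTAIR-N siRNA, against 0.34, -0.08 and 0.40 with control siRNA. The groups did not overlap in it (difference 1.74, exact two-sided permutation p = 0.1), and in TPM the difference was smaller, at 1.36.

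MAGI2-AS3 (chromosome 7, divided counts) was chosen after its values were seen, as the only -AS3 name. It had 46.9, 44.0 and 47.7 CPM with HOTAIR-N siRNA, against 23.5, 28.5 and 27.4 CPM with control siRNA, a log2 fold change of 0.80 (SE 0.08; edgeR, adjusted p = 4.33e-07). On the length-adjusted scale it stood at 22.7 TPM with HOTAIR-N siRNA and 16.9 TPM with control siRNA, as group means. MAGI2, a scaffold protein of cell junctions, averaged 2.81 ± 0.26 CPM with HOTAIR-N siRNA and 3.57 ± 0.51 CPM with control siRNA (SD, n = 3 each), with a log2 fold change of -0.35 (edgeR, adjusted p = 0.0421).

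TMEM51-AS1 (chromosome 1, divided counts) fell in this class. It had 1.13, 1.5 and 1.26 CPM with HOTAIR-N siRNA, against 3.06, 3.67 and 2.18 CPM with control siRNA, a log2 fold change of -1.19 (SE 0.20; edgeR, adjusted p = 0.000112). TMEM51, a membrane protein gene, had a log2 fold change of -0.13 and did not pass (adjusted p = 0.224).

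**Figure D4:**
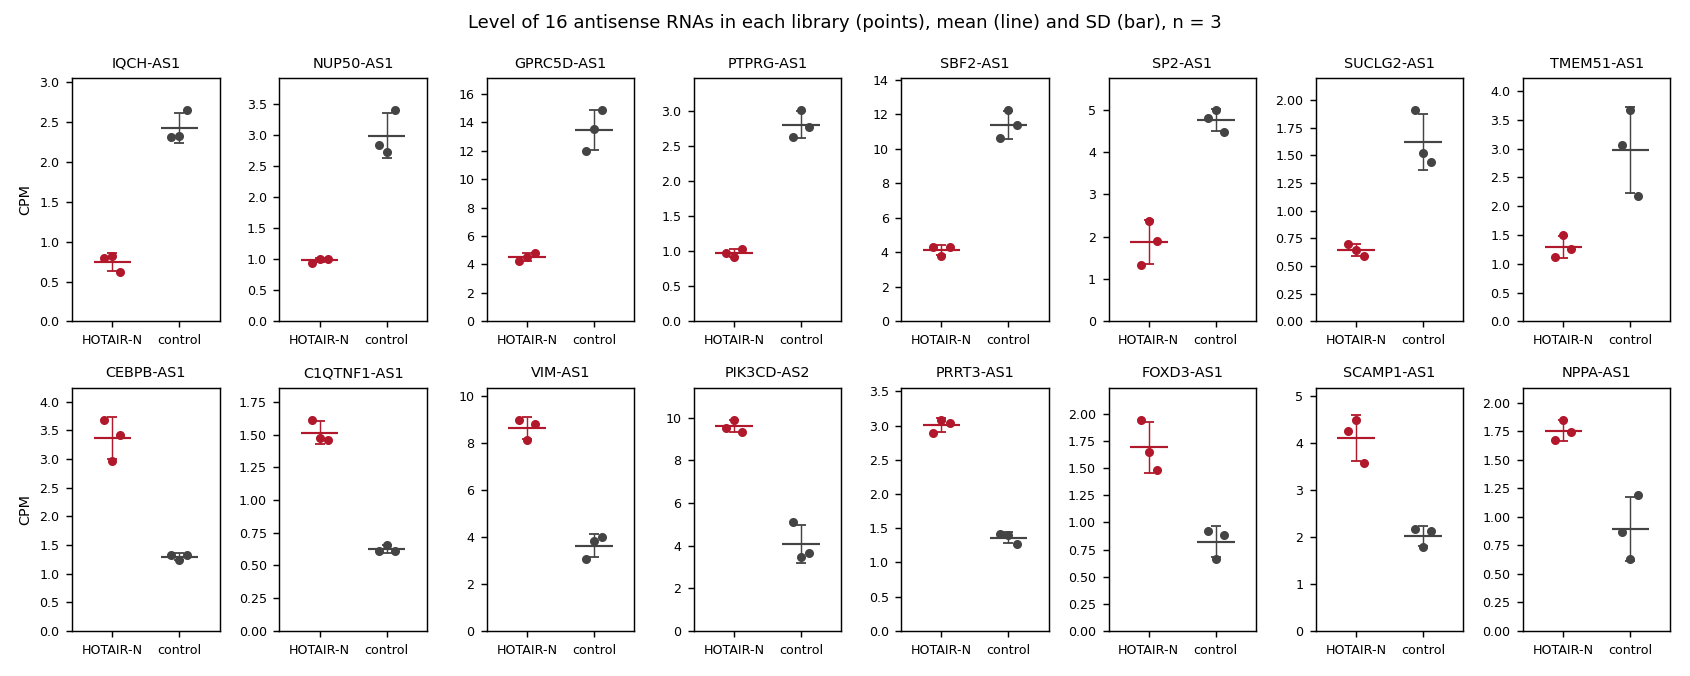
CPM in each library (points), group mean (line) and SD (bar, n = 3) for the 8 antisense RNAs that fell most (top) and the 8 that rose most (bottom), with HOTAIR-N siRNA left of control siRNA in each panel and each axis starting at 0. The groups do not overlap for any of the 16.

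The 48 antisense RNAs whose 3′ end overlaps that of the partner included 10 that rose (20.8%) and 12 that fell (25%). Of 45 tested partners 13 rose (28.9%) and 14 fell (31.1%), against 28.7% and 28.8% of all genes. Several of the lowest of all lay here. IQCH-AS1 (chromosome 15, divided counts) had 0.792, 0.823 and 0.618 CPM with HOTAIR-N siRNA, against 2.31, 2.32 and 2.65 CPM with control siRNA, a log2 fold change of -1.71 (SE 0.18; edgeR, adjusted p = 1.19e-06). The change was smaller in TPM, with 2.02, 2.43 and 1.69 TPM with HOTAIR-N siRNA against 3.17, 1.82 and 3.00 TPM with control siRNA, and those groups overlapped. IQCH, named for its IQ motif, had 2.53, 2.65 and 2.53 CPM with HOTAIR-N siRNA, against 4.02, 4.24 and 4.20 CPM with control siRNA, a log2 fold change of -0.69 (edgeR, adjusted p = 0.000122). Relative to IQCH, the log2 ratio was lower by 0.96 in counts but higher by 0.29 in TPM, so that its direction depends on the unit.

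PTPRG-AS1 (chromosome 3, whole counts) had 0.975, 0.912 and 1.04 CPM with HOTAIR-N siRNA, against 2.63, 3.01 and 2.76 CPM with control siRNA, a log2 fold change of -1.52 (SE 0.16; edgeR, adjusted p = 1.10e-06). PTPRG, a receptor-type tyrosine phosphatase, had 6.40, 6.32 and 7.07 CPM with HOTAIR-N siRNA, against 6.82, 9.43 and 7.27 CPM with control siRNA. Its groups overlapped and it did not pass (log2 fold change -0.25, edgeR adjusted p = 0.0857), although it did without control replicate 1 (-0.33, adjusted p = 0.0194).

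SBF2-AS1 and SP2-AS1 fell while their partners rose slightly. SBF2-AS1 (chromosome 11, divided counts, 32.2% of its exons overlapping) had 4.30, 3.79 and 4.29 CPM with HOTAIR-N siRNA, against 10.6, 12.2 and 11.4 CPM with control siRNA, a log2 fold change of -1.46 (SE 0.10; edgeR, adjusted p = 1.15e-08). SBF2, a myotubularin-related protein, had 80.9, 83.8 and 81.4 CPM with HOTAIR-N siRNA, against 68.6, 73.5 and 72.8 CPM with control siRNA, a log2 fold change of 0.20 (edgeR, adjusted p = 0.00813). The partner's rise did not pass in TPM (limma, adjusted p = 0.0871). SP2-AS1 (chromosome 17, whole counts, no exon overlap) had 1.34, 2.38 and 1.91 CPM with HOTAIR-N siRNA, against 4.80, 4.99 and 4.48 CPM with control siRNA, a log2 fold change of -1.34 (SE 0.16; edgeR, adjusted p = 5.57e-06). SP2, a transcription factor of the Sp family, had 24.9, 25.8 and 27.6 CPM with HOTAIR-N siRNA, against 22.1, 22.4 and 19.8 CPM with control siRNA, a log2 fold change of 0.28 (edgeR, adjusted p = 0.00439). For SBF2 the log2 ratio differed by -1.65 between groups and for SP2 by -1.63, without overlap in either (exact two-sided permutation p = 0.1 each).

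TNRC6C-AS1 (divided counts, 32.7% of its exons overlapping) went the other way. It had 1.16, 1.5 and 1.43 CPM with HOTAIR-N siRNA, against 0.781, 0.659 and 0.829 CPM with control siRNA, a log2 fold change of 0.85 (SE 0.20; edgeR, adjusted p = 0.00216). TNRC6C, a protein of miRNA-guided silencing, had 11.5, 12.9 and 12.3 CPM with HOTAIR-N siRNA, against 15.2, 17.8 and 16.6 CPM with control siRNA, a log2 fold change of -0.43 (edgeR, adjusted p = 0.000409). Since RefSeq now lists this name under TMC6, which encodes a protein, the row may hold reads of that gene, which was not tested.

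Of 14 antisense RNAs that span their partner, 3 rose (21.4%) and 1 fell (7.1%), against 28.7% and 28.8% of all genes. The faller, GPRC5D-AS1 (chromosome 12, whole counts, no exon overlap), had the widest opposite change of all pairs in which both genes passed. It had 4.27, 4.56 and 4.80 CPM with HOTAIR-N siRNA, against 12, 13.5 and 14.8 CPM with control siRNA, a log2 fold change of -1.56 (SE 0.10; edgeR, adjusted p = 8.51e-09). GPRC5D, an orphan G protein-coupled receptor, had 3.08, 1.91 and 1.91 CPM with HOTAIR-N siRNA, against 1.01, 0.917 and 0.774 CPM with control siRNA, a log2 fold change of 1.35 (SE 0.22; edgeR, adjusted p = 9.69e-05). The log2 ratio of the pair was 0.46, 1.23 and 1.3 with HOTAIR-N siRNA, against 3.49, 3.80 and 4.16 with control siRNA, a difference of -2.82 without overlap (exact two-sided permutation p = 0.1).

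Of the 4 most abundant antisense RNAs, 3 did not pass the test and 1 fell. LRRC75A-AS1 (RefSeq SNHG29, a host gene of small nucleolar RNAs, whole counts) averaged 357 TPM with HOTAIR-N siRNA and 341 TPM with control siRNA, and in CPM it had 143, 146 and 146 with HOTAIR-N siRNA against 142, 124 and 141 with control siRNA. It did not pass (log2 fold change 0.10, edgeR adjusted p = 0.184), but did without control replicate 1 (0.14, adjusted p = 0.0373). Its partner LRRC75A averaged 3.32 ± 0.25 CPM with HOTAIR-N siRNA and 4.34 ± 0.58 CPM with control siRNA (SD, n = 3 each), with a log2 fold change of -0.39 (edgeR, adjusted p = 0.0178) that missed the threshold without HOTAIR-N siRNA replicate 3 (0.0729), control replicate 1 (0.0507) or control replicate 3 (0.0709). THAP9-AS1 (divided counts), at 55.3 TPM with HOTAIR-N siRNA and 60.0 TPM with control siRNA, and PITPNA-AS1 (divided counts), at 33.9 TPM with HOTAIR-N siRNA and 37.5 TPM with control siRNA, had log2 fold changes of -0.08 and -0.09 and did not pass (edgeR, adjusted p = 0.318 and 0.505). THAP9-AS1 passed without control replicate 1 (-0.13, adjusted p = 0.0429). THAP9, derived from a transposase, had a log2 fold change of 0.30 (adjusted p = 0.0416), which was lost with DESeq2 (0.0739) and in 4 of the 6 fits that leave out a library. PITPNA, a phosphatidylinositol transfer protein, rose by 0.23 (adjusted p = 0.00179).

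The abundant RNA that fell was FGD5-AS1 (chromosome 3, whole counts). It had 43.7, 43.0 and 45.5 TPM with HOTAIR-N siRNA, against 66.3, 80.9 and 77.3 TPM with control siRNA. In CPM these were 84.2, 82.0 and 86.1 with HOTAIR-N siRNA against 127, 146 and 144 with control siRNA, without overlap and with a log2 fold change of -0.72 (SE 0.06; edgeR, adjusted p = 1.56e-07). FGD5, an exchange factor for CDC42 known from endothelium, was too low to be tested. OIP5-AS1 (chromosome 15, whole counts), known in vertebrates as Cyrano and named here after its values were seen, fell too. It had 50.8, 47.7 and 48.6 CPM with HOTAIR-N siRNA, against 59.8, 69.9 and 71.3 CPM with control siRNA, a log2 fold change of -0.45 (SE 0.07; edgeR, adjusted p = 7.04e-05). OIP5, a centromere protein, had a log2 fold change of -0.12 and did not pass (adjusted p = 0.168).

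The deposited tables divide 100 of the 236 antisense genes into several isoforms, and 485 isoforms in all. Of 366 tested, 21 rose and 22 fell, which is 11.7% against 19.5% of all 32627 isoforms tested (edgeR, adjusted p under 0.05 over all isoforms). The 43 calls became 17, 18 and 19 without HOTAIR-N siRNA replicates 1, 2 and 3, and 18 and 23 without control replicates 2 and 3. The changed isoforms belonged to 35 antisense genes. In 5 of these the gene as a whole did not pass, LRRC75A-AS1, NUTM2B-AS1, PAX8-AS1, PSMA3-AS1 and RUSC1-AS1. In 3 genes isoforms passed in both directions.

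PAX8-AS1, from the locus of the thyroid and kidney transcription factor PAX8, did not pass as a gene (21.1, 22.3 and 21.9 CPM with HOTAIR-N siRNA, against 22.9, 21.6 and 24 CPM with control siRNA; edgeR, adjusted p = 0.421) while its isoforms moved apart. NR_015377 had 3.04, 3.51 and 3.39 TPM with HOTAIR-N siRNA, against 7.09, 8.33 and 8.78 TPM with control siRNA, a log2 fold change of -1.23 (SE 0.12; edgeR, adjusted p = 0.00247). NR_047570 had 18, 18.8 and 18.7 TPM with HOTAIR-N siRNA, against 14.4, 12.6 and 13.5 TPM with control siRNA, a log2 fold change of 0.51 (SE 0.09; edgeR, adjusted p = 0.0155). The share of NR_015377 in its gene was 14.4%, 15.7% and 15.4% with HOTAIR-N siRNA, against 33.0%, 39.9% and 39.4% with control siRNA. The fall passed with each library left out, and the rise did not without any of the HOTAIR-N siRNA libraries (adjusted p = 0.0539, 0.0618 and 0.0641 for replicates 1, 2 and 3) or control replicate 3 (0.0569).

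NUTM2B-AS1 showed the widest change in the share of an isoform among these 3 genes. NR_120612 made up 81.7%, 78.7% and 84.7% of the gene with HOTAIR-N siRNA, against 39.7%, 41.5% and 38.1% with control siRNA, and NR_120613 made up 11.9%, 13.1% and 9.45% with HOTAIR-N siRNA against 53.5%, 52.0% and 55.9% with control siRNA. Their log2 fold changes were 1.42 (SE 0.12) and -1.85 (SE 0.19; edgeR, adjusted p = 0.00169 and 0.00242), and both passed with each library left out. NUTM2B has close copies, so that reads of this locus may be shared between genes.

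In TTC28-AS1 the long isoform NR_026963, of 5109 nt, had 0.44, 0.51 and 0.43 TPM with HOTAIR-N siRNA, against 2.04, 1.87 and 2.19 TPM with control siRNA, a log2 fold change of -2.08 (SE 0.19; edgeR, adjusted p = 0.00173). The short isoform NR_026962, of 948 nt, had 8.73, 7.38 and 9.68 TPM with HOTAIR-N siRNA, against 4.82, 5.10 and 4.97 TPM with control siRNA. Its log2 fold change of 0.85 (edgeR, adjusted p = 0.0304) missed the threshold when any library was left out (adjusted p = 0.0544 to 0.113). In counts, to which a long isoform gives more reads per molecule, the gene fell by 0.59 on the log2 scale, and TTC28 fell by 0.47. In TPM the short isoform was the more abundant in every library and was higher with HOTAIR-N siRNA. The direction of the gene may therefore depend on the unit.

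**Figure D5:**
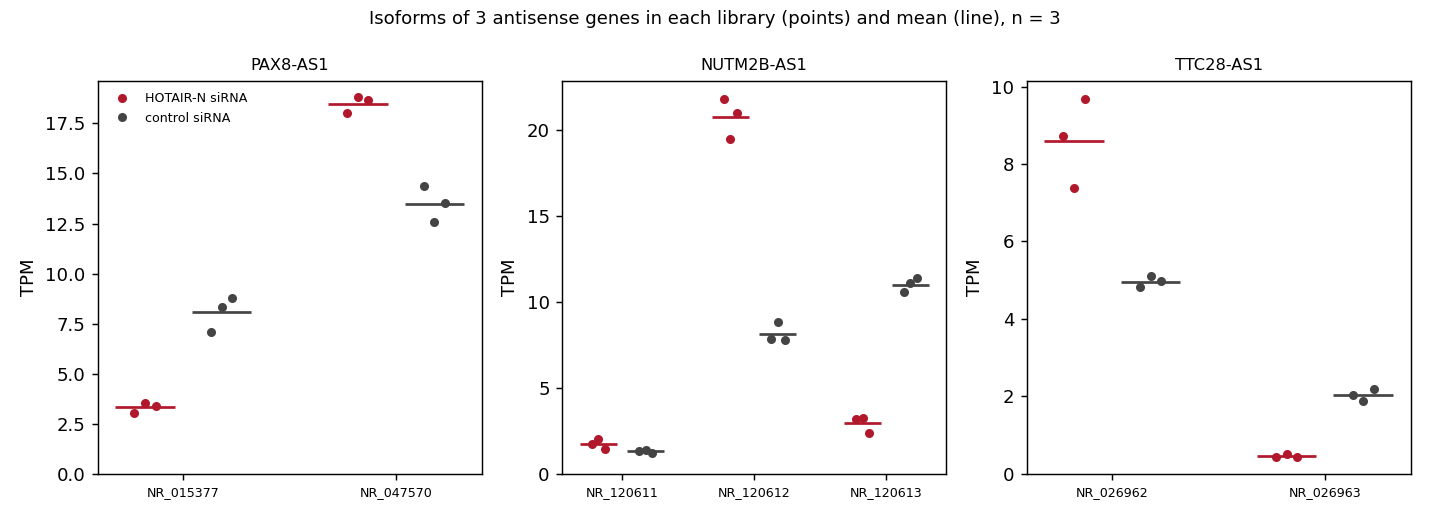
TPM of each tested isoform of PAX8-AS1, NUTM2B-AS1 and TTC28-AS1 in each library (points) with the group mean (line, n = 3), HOTAIR-N siRNA in red left of control siRNA in grey. NR_015377, NR_120613 and NR_026963 are lower and NR_047570, NR_120612 and NR_026962 higher in all 3 HOTAIR-N siRNA libraries.

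The word GACCAAT, known from earlier results of these data to go with lower mRNA levels when it lies in the 3′ UTR, was searched on the transcribed strand of the antisense RNAs in GENCODE release 29. It was carried by 29 of 232 antisense genes with a transcript there (12.5%), against 2456 of 14597 tested genes (16.8%). Of the 29, 8 rose and 8 fell, and their median log2 fold change was 0.02, against 0.13 for those without it. Over all genes the medians were -0.19 with the word and 0.04 without, which is no independent evidence, as the word came from these data. Genes with the word also had longer transcripts. The median longest transcript was 2941 nt with it and 2192 nt without among antisense genes, and 4788.5 and 3370 nt over all genes. Whether length bears on these medians was not tested. None of the 8 antisense RNAs that fell most carries it. The sites of 4 genes are shown, each with 10 bases on either side and the word in capitals. FGD5-AS1, OIP5-AS1 and PAX8-AS1 carry it in transcripts matched to isoforms that fell, and MAGI2-AS3 is a gene that rose. In MAGI2-AS3 it lies in 1 of 26 transcripts, and none of the 3 tested isoforms is matched to a transcript that carries it, including NR_038343, which rose by 0.94 on the log2 scale.
FGD5-AS1: agttgacaacGACCAATtgagagcaat
OIP5-AS1: tagagactaaGACCAATagcttgaata
PAX8-AS1: gctcctaaatGACCAATacacatgtgc
MAGI2-AS3: agcatcctgaGACCAATgaatctttag

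Matched by RefSeq name, 26 tested isoforms of these genes carry the word and 277 do not. With it 2 rose and 7 fell, at a median log2 fold change of -0.22, and without it 17 rose and 11 fell, at a median of 0.16. Several of the 26 come from the same gene. As the word came from these data, neither this contrast nor that of the PAX8-AS1 isoforms below is independent evidence. The 2 carriers that rose were NR_015382 of CD27-AS1 (0.72, edgeR adjusted p = 0.046) and NR_038272 of TTN-AS1 (0.42, adjusted p = 0.037). The carriers that fell were 3 isoforms of FGD5-AS1 (NR_046252 by 0.92, NR_046253 by 1.07 and NR_046254 by 1.02 on the log2 scale). With them fell 2 of OIP5-AS1, 1 of NOP14-AS1 and NR_015377 of PAX8-AS1. In GENCODE the word lies in 4 of 5 transcripts of FGD5-AS1, 1 of 10 of OIP5-AS1 and 5 of 20 of PAX8-AS1. For FGD5-AS1 and OIP5-AS1 more isoforms are counted as carriers than transcripts hold the word, so the match of isoforms to transcripts is uncertain. In PAX8-AS1 the isoform that fell carries the word and the isoform that rose, NR_047570, does not. The other 2 isoforms of FGD5-AS1, NR_046251 (-0.05, edgeR adjusted p = 0.841) and NR_046255 (-0.12, adjusted p = 0.918), carry the word too and did not pass. The isoforms of FGD5-AS1 differ little in length, so that the division of reads among them is uncertain. The isoforms that fell in NUTM2B-AS1 and TTC28-AS1 do not carry it.

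Genes of the nuclear RNA exosome, its adaptor complexes and the cap-binding complex, with the nuclease XRN2, are known to turn over or mark promoter-linked RNAs. Of 23 tested, 8 rose, 6 fell and 9 did not pass, a share of 60.9% called against 57.5% of all genes, at a median log2 fold change of -0.07 against 0.01 for all genes. PABPN1, a poly(A)-binding protein of an adaptor (0.45), the core subunit EXOSC4 (0.43) and the zinc finger adaptor ZFC3H1 (0.36) rose most, and the cofactors MPHOSPH6 (-0.52) and C1D (-0.28) and the core subunit EXOSC7 (-0.25) fell most. EXOSC3 (-0.12), EXOSC10 (-0.07), MTREX (0.06) and ZCCHC8 (-0.02), a core subunit, a nuclease, the helicase and a scaffold of an adaptor, did not pass.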

How the data were processed

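RNA was sequenced from 6 libraries of H23 cells, 3 with HOTAIR-N siRNA and 3 with control siRNA, per the labels with a stranded total RNA kit after ribosomal RNA depletion. Per the submitters' processing notes the authors worked on the build hg19 with the tools STAR 2.6.0c and RSEM 1.3.0. Which annotation and strand setting were used is not given in the sources used here. The deposited gene and isoform tables hold expected counts, RSEM's estimates of reads per gene, per the file headers. TPM and FPKM, also deposited, are length-adjusted values; FPKM was not used. The isoform tables give, per the file headers, each isoform's percent of the gene total.

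Counts, after rounding, entered edgeR 4.0.16 under R 4.3.3 (filterByExpr by group, TMM scaling, robust quasi-likelihood test, Benjamini-Hochberg adjustment over all 15072 genes, threshold 0.05). SE is the log2 fold change over the square root of F. Isoforms were tested likewise. Log2 ratios of pairs used CPM with a prior count of 2 and exact two-sided permutation tests. The steps were tested on simulated data in which far fewer genes and isoforms changed than were called here. That test does not show how the steps behave when so many change. Arrangement and word searches used GENCODE release 29 models, on another build than the tables, so no coordinates were carried over. Promoters came from RefSeq GRCh38.p14. The members and lists were chosen with earlier results of these data known. Genes named are HOTAIR, the 8 highest and 8 lowest members past the threshold, the 4 most abundant by TPM, the 6 pairs with the widest opposite changes, their partners, and antisense RNAs beside the count minimum, 1 of which is not reported here. Others were chosen after their values were seen: the remaining pairs and classes, the isoforms, MAGI2-AS3 and OIP5-AS1. Alternatives were RLE or no scaling, other filters, DESeq2 1.42.0, limma-voom (limma 3.58.1), limma on log2(TPM + 1), a replicate block, each library left out, and count minimums of 10 and 50.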

Additional observations from a re-analysis of the deposited data

How the results depend on the processing

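The 110 calls among the antisense RNAs ranged over 104 to 115 with RLE scaling, no scaling, no filter, 20 counts in every library and limma-voom, and 95 of 113 calls from limma on log2(TPM + 1) were shared with them. DESeq2 called 79, of which 51 were higher and 28 lower. Over all genes the calls numbered 8018 with DESeq2 and 8055 to 8895 with the other settings named so far, against 8672 in the main fit. With a minimum of 10 or 50 counts, 124 of 298 (41.6%) and 76 of 150 (50.7%) passed. Restricted, after the data were seen, to whole counts 57 of 125 passed (45.6%), and to no exon overlap 35 of 72 (48.6%). Among partners of whole-count members 62 of 114 passed (54.4%). These shares stand beside 57.5% of all genes, and fewer genes enter the restricted counts. The list of antisense RNAs left out for a low count or a HOX name gave 32 calls. With 20 counts in every library it gave 0, as those below that count are not tested.

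The replicate number as a block gave 96 calls for members, 117 for partners and 7984 for all genes. It gave 11 for isoforms, against 43 without it. Deviations of log2 CPM from the group mean correlated at -0.12, 0.02 and -0.04 between same-numbered libraries. Between differently numbered libraries they correlated at -0.14 to 0.17. No pairing by number was seen, but 3 libraries a group are too few to exclude it. The block took the isoform calls of NR_047570 (adjusted p = 0.0873) and NR_026962 (0.13). With each library left out, calls numbered 84 to 103 for members, 111 to 137 for partners and 17 to 30 for isoforms. They numbered 12 to 16 for exosome genes, 25 to 33 for the antisense RNAs left out and 7503 to 9234 for all genes. Pair ratios without overlap numbered 131 to 140, against 122. Leaving out a library can remove overlap but not add it, so this count is no check of those ratios.

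Signs turned without control replicate 1 for PITPNA-AS1 (0.0013, against -0.09 and a range of -0.20 to 0.0013 over left-out libraries) and SCAMP1 (-0.060, against 0.09 and a range of -0.060 to 0.20), and for the pair ratio of IQCH-AS1 in TPM (0.29, against -0.96); the cause was not tested. Over the other settings of the named log2 fold changes, 30 lost a call, 3 gained a call and 619 kept direction and side of the threshold. In limma on TPM, IQCH-AS1 did not pass (adjusted p = 0.175), nor did SLC12A5-AS1 (0.0579). The pair ratio of SLC12A5-AS1 was 1.36 in TPM, against 1.74. Low counts limit the precision of these RNAs.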

Other observations

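Antisense RNAs that were tested but left out, for a count below 20 or for a HOX name, numbered 129, 2 of them with HOX names. Of these 20 rose (15.5%) and 12 fell (9.3%), a share of 24.8% called against 57.5% of all genes, at a median log2 fold change of 0.18. The largest changes, picked after the values were seen, rest on few reads. TAPT1-AS1 had 0.488, 0.5 and 0.393 CPM with HOTAIR-N siRNA, against 0.0578, 0.115 and 0.0553 CPM with control siRNA (log2 fold change 2.54, SE 0.42; edgeR, adjusted p = 0.000119). PCOLCE-AS1 had 1.25, 0.912 and 1.21 CPM with HOTAIR-N siRNA, against 0.318, 0.201 and 0.249 CPM with control siRNA (2.12, SE 0.27; edgeR, adjusted p = 1.02e-05). OCIAD1-AS1 had 0.0914, 0.118 and 0.0842 CPM with HOTAIR-N siRNA, against 0.376, 0.430 and 0.387 CPM with control siRNA (-1.99, SE 0.40; edgeR, adjusted p = 0.000577). The HOX names HOXC-AS3 and HOXD-AS2 had log2 fold changes of -0.23 and -0.03 and did not pass (edgeR, adjusted p = 0.475 and 0.92).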
